A study of Mus musculus with 6 samples.

Results

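The genes described here are *Larp7*, which hosts the *mir-302* cluster, and 8 genes of the 7SK particle, the elongation kinase P-TEFb and RNA polymerase II itself: *Mepce*, *Hexim1*, *Cdk9*, *Ccnt1*, *Ccnt2*, *Ctdp1*, *Ssu72* and *Polr2a*. They were taken by symbol from a table of 55414 genes, and all 9 were found and passed the filter on low counts that left 16353 genes for testing. The genes were chosen with earlier results of these data in view. *Ctdp1* was included because it was among the genes with the strongest rise in KO. Its difference between genotypes is given as a description, and its p-values and calls are not read as support for it. Messenger RNA was sequenced from *Pdx1-Cre*-labelled cells sorted from mouse embryos at E10.5, in 3 WT and 3 *mir-302* KO libraries, to learn which transcripts differ when the miRNA is missing. Both genotypes carried *Pdx1-Cre*, which is active in pancreatic progenitors, and a tdTomato reporter at *Rosa26* that Cre switches on. The WT embryos kept *mir-302*, and the KO embryos lacked it from conception, since their parents were both heterozygous carriers. The loss was therefore not limited to the labelled cells. The number of embryos behind a library is not given in the sources used here, so the spread between libraries may be technical as well as biological.

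7SK is an abundant noncoding RNA of the nucleus that serves as a store of inactive P-TEFb. MEPCE caps the RNA at its 5′ end, LARP7 binds its 3′ end and protects it, and HEXIM1 inhibits P-TEFb on it. P-TEFb consists of the kinase CDK9 with cyclin T1 or T2. Once released from 7SK, it phosphorylates the negative elongation factor NELF, the factor DSIF and the C-terminal domain (CTD) of POLR2A, and the polymerase leaves its pause near the promoter. The phosphatases CTDP1 (also called FCP1) and SSU72 remove phosphates from the CTD so that the polymerase can be used again.

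In the reference annotation (GENCODE M21, build GRCm38), *Larp7* occupies chr3:127536714-127553349 on the minus strand, and the 5 hairpins of the cluster span 580 bases at chr3:127545228-127545807 on the plus strand. The cluster thus lies on the strand opposite to its host, within intron 8 of the *Larp7* transcript with 13 exons, and it covers 0 exon bases of *Larp7*. Of the mature miRNAs of the cluster, the 3p entries of RefSeq for GRCm38.p6 are shown. The text of the paper names *mir-302* as what KO embryos lack and does not mention miR-367. No 3p entry of miR-302a was found there. Bases 2 to 8, the seed that pairs with target transcripts, are in capitals.
mmu-miR-302b-3p: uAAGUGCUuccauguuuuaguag
mmu-miR-302c-3p: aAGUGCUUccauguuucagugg
mmu-miR-302d-3p: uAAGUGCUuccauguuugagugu
mmu-miR-367-3p: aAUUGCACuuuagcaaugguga
miR-302b-3p and miR-302d-3p shared the seed AAGUGCU, the entry of miR-302c-3p starts 1 base later, and miR-367-3p has a different seed.

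Of the 9 genes, 1 had letters in its 3′UTR that pair with the miR-302 seed. The sense strand of each 3′UTR was searched for AGCACTT, which pairs with bases 2 to 8, and for GCACTTA, which pairs with bases 2 to 7 and has an A opposite base 1. *Mepce* had 1 match, of the second kind, at base 360 of its 526-base 3′UTR. The site, with the match in capitals, lies at chr5:137782056-137782083 of GRCm38 on the minus strand.
*Mepce* site: tgttcctagctGCACTTAaatggaccat
Of the 13768 tested genes with an annotated 3′UTR, 2833 (20.6%) had a match, beside 11.1% of the 9 genes. None of the 9 had a match to the miR-367 seed. A match is a description of letters and not evidence of binding.

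*Larp7* mRNA was at about the same level in both genotypes. It was at 75.2, 52.7 and 61.9 CPM (read counts scaled to the total of each library, after TMM correction) in WT replicates 1, 2 and 3, and KO replicates 1, 2 and 3 were at 64.3, 57.7 and 63.6 CPM. The highest and the lowest of the 6 values were both WT, and all KO values lay between them. The means were 63.3 ± 11.3 CPM for WT and 61.9 ± 3.61 CPM for KO (mean ± SD of 3 libraries here and throughout), a log2 fold change of -0.03 with a standard error of 0.14 (edgeR's quasi-likelihood test, adjusted p = 0.97). The raw counts of *Larp7* ran from 944 to 1725 per library. The hairpins themselves gave no check of the labels. *Mir302a*, *Mir302b*, *Mir302c* and *Mir367* were at 0 counts in all 6 libraries and *Mir302d* at 2 counts in KO replicate 3 alone, under the 3 counts that a count of 0 allows. The libraries were made from polyadenylated RNA, which does not include mature miRNAs.

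The other 2 proteins of the 7SK particle overlapped between genotypes too. *Mepce*, the capping enzyme of 7SK, was at 16.8, 18.0 and 17.2 CPM in WT and at 15.6, 20.9 and 21.7 CPM in KO, so that KO replicate 1 was the lowest of all and the other KO libraries were the highest. Its log2 fold change was 0.16 ± 0.17 (SE; edgeR adjusted p = 0.84), and it was the member with both a miR-302 match and the most GC-rich stretch, described further on. *Hexim1*, the inhibitor of the kinase, was at 6.55, 3.52 and 4.27 CPM in WT and at 3.13, 4.39 and 2.78 CPM in KO. WT replicate 1 stood above the others, and KO replicate 2 lay above 2 of the WT values. The means were 4.78 ± 1.58 in WT and 3.43 ± 0.847 CPM in KO, a log2 fold change of -0.48 ± 0.32 (SE; edgeR adjusted p = 0.71). It was -0.19 without WT replicate 1 and -0.68 without KO replicate 2, the ends of the range with 1 library left out. *Hexim1* was the lowest of the 9 genes, with 51 to 139 counts per library, and its standard error was the largest. Its paralogue *Hexim2*, which can take its place on 7SK, was at 5.72 ± 1.28 in WT and 5.93 ± 0.0467 CPM in KO, a log2 fold change of 0.05 ± 0.23 (SE). The 7SK RNA itself was not analysed here.

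**Figure D1:**
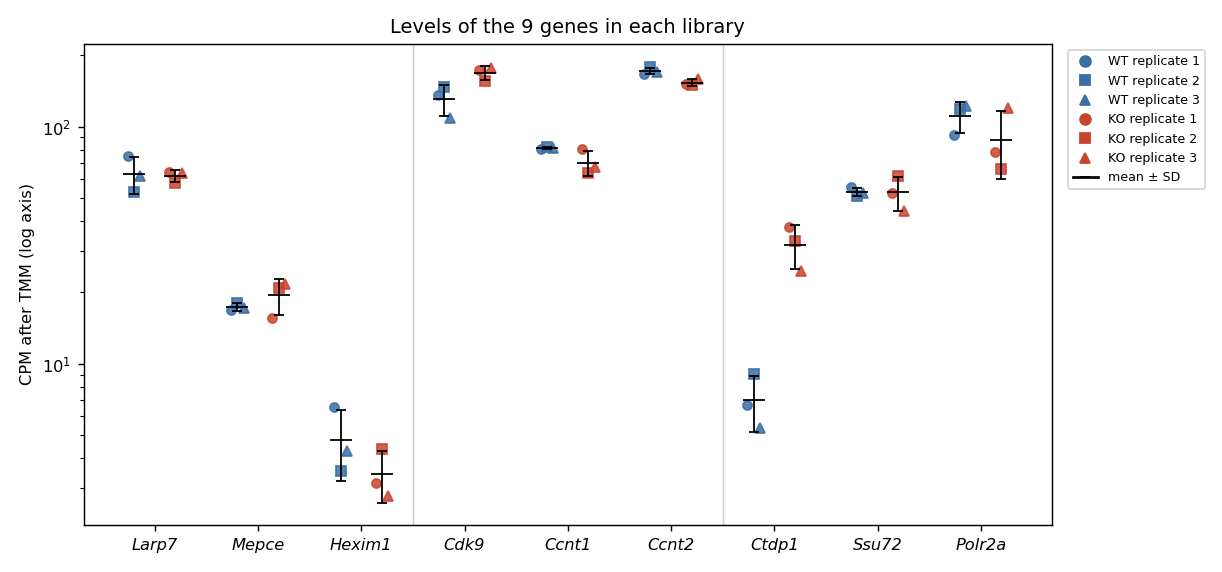
CPM after TMM scaling on a log axis for each of the 9 genes, with 1 point per library (colour for genotype, shape for replicate number) and the mean ± SD of 3 libraries in black. The *Ctdp1* values are separated by the widest gap, from 9.05 CPM in the highest WT library to 24.6 CPM in the lowest KO library, whereas those of *Larp7*, *Mepce*, *Hexim1*, *Ssu72* and *Polr2a* overlap.

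None of the genes of P-TEFb passed an adjusted threshold, beside 0% of all tested genes with edgeR and 4.87% of all genes with DESeq2. The fold changes were above 0 for the kinase and under 0 for both cyclins. *Cdk9* was at 135.2, 146.9 and 108.7 CPM in WT and at 173.3, 155.5 and 177.2 CPM in KO. Every KO value lay above every WT value, and the closest pair was WT replicate 2 with KO replicate 2. The means were 130.2 ± 19.6 in WT and 168.7 ± 11.6 CPM in KO, a log2 fold change of 0.37 ± 0.12 (SE; edgeR unadjusted p = 0.017, adjusted p = 0.30). DESeq2 gave *Cdk9* an adjusted p of 0.102.

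*Ccnt2*, which encodes cyclin T2, was at 167.2, 177.8 and 169.8 CPM in WT and at 150.8, 149.3 and 159.1 CPM in KO. All KO values were under all WT values, and the spread within each genotype was small, with means of 171.6 ± 5.54 CPM and 153.1 ± 5.26 CPM. The log2 fold change was -0.17 ± 0.07 (SE; edgeR unadjusted p = 0.0434, adjusted p = 0.45). *Ccnt1*, which encodes cyclin T1, was at 80.7, 81.8 and 81.6 CPM in WT and at 80.3, 63.5 and 67.3 CPM in KO. Its KO values were also all the lower ones, but KO replicate 1 fell short of the lowest WT value by under 1 CPM. Its log2 fold change was -0.21 ± 0.10 (SE; edgeR adjusted p = 0.57).

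The balance of the kinase and its cyclins was computed per kb of merged exons, since levels of different genes can be compared only per length. The level of *Cdk9* divided by the summed levels of *Ccnt1* and *Ccnt2* was 1.31, 1.36 and 1.04 in the WT libraries and 1.79, 1.77 and 1.90 in the KO libraries. The genotypes did not overlap in this ratio, which averaged 1.24 ± 0.174 in WT and 1.82 ± 0.0684 in KO. With the length of the longest coding transcript, tried after these values were seen, it averaged 2.06 ± 0.288 and 3.02 ± 0.104, so its level depends on the length used, and the genotypes did not overlap either. The ratio was formed from genes already known to differ in direction, and 3 libraries against 3 cannot reach an exact permutation p under 0.1, so it is not offered as a test. *Ccnt1* relative to *Ccnt2* was 0.639 ± 0.0168 in WT and 0.621 ± 0.0840 in KO, and these values overlapped. With the coding transcript as length, it was 0.432 ± 0.0114 in WT and 0.419 ± 0.0567 in KO, also with overlap.

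*Ctdp1*, the CTD phosphatase, had by far the widest difference of the 9 genes. It was at 6.69, 9.05 and 5.34 CPM in WT and at 37.6, 33.0 and 24.6 CPM in KO. The genotypes were far apart, and KO replicate 3 was the nearest to WT. The means were 7.03 ± 1.88 in WT and 31.8 ± 6.62 CPM in KO, a ratio of 4.52 and a log2 fold change of 2.18 ± 0.25 (SE). The raw counts behind these values were 142, 162 and 110 in WT and 1010, 580 and 452 in KO. Among all genes higher in KO, *Ctdp1* was number 5 by p-value and number 47 by fold change, and number 7 by fold change among those with at least 5 CPM in WT. These ranks restate why it was chosen. Of the annotated exon bases of *Ctdp1*, 351 (8.98%) are shared with a noncoding gene on the opposite strand, AC127256.1, which had between 0 and 2 counts per library. The handling of strand in the counting is not given in the sources used here, and the cDNA kit does not mark strand.

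*Ssu72*, the other CTD phosphatase among the 9 genes, was at 55.4, 51.2 and 52.4 CPM in WT and at 52.3, 61.8 and 44.2 CPM in KO. The KO libraries enclosed the WT libraries on both sides. The means were 53.0 ± 2.16 CPM and 52.8 ± 8.77 CPM, a log2 fold change of -0.01 ± 0.14 (SE; edgeR adjusted p = 0.99). An antisense gene, *1500002C15Rik*, shares 407 exon bases (15.1%) with *Ssu72* and was itself at 2.17 ± 0.246 in WT and 1.63 ± 0.0250 CPM in KO, far under the level of *Ssu72*. Per kb of merged exons, *Ctdp1* relative to *Ssu72* was 0.0831, 0.122 and 0.0700 in WT and 0.495, 0.368 and 0.382 in KO. With the coding transcript as length, the means were 0.0528 ± 0.0155 in WT and 0.239 ± 0.0402 in KO. The phosphatases thus stood closer to each other in KO, although *Ctdp1* remained the lower of the pair in every library.

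*Polr2a* encodes the largest subunit of RNA polymerase II, which carries the CTD. It was at 91.7, 118 and 121.8 CPM in WT and at 78.1, 66.3 and 119.6 CPM in KO. KO replicates 1 and 2 were under every WT library, but KO replicate 3 was above 2 of them. The means were 110.5 ± 16.4 CPM and 88.0 ± 28.0 CPM, a log2 fold change of -0.33 ± 0.22 (SE; edgeR adjusted p = 0.71). It ran from -0.15 without KO replicate 2 to -0.58 without KO replicate 3. *Polr2b*, the second-largest subunit, was at 315.7 ± 28.2 in WT and 317.1 ± 36.8 CPM in KO. *Polr2a* relative to *Polr2b* per kb was 0.234 ± 0.0512 in WT and 0.181 ± 0.0364 in KO, with overlapping values.

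Adjusted over all 16353 genes, 0 of the 9 passed edgeR's quasi-likelihood test at an adjusted p of 0.05, beside a background of 0% of all genes. At an unadjusted p under 0.05, *Cdk9* and *Ctdp1* were higher and *Ccnt2* was lower in KO. The background at this threshold was 10.4% of all tested genes, 6.42% higher and 3.97% lower. DESeq2 gave an adjusted p under 0.05 to 699 of the 14353 genes for which it reported one (4.87%), of which 606 (4.22%) were higher and 93 (0.648%) lower in KO, and to 1 of the 9, *Ctdp1*. Without a filter on low counts, edgeR called 264 of 30187 genes (0.875%), and without WT replicate 2 it called 217 of 17000 genes (1.28%), in both settings with *Ctdp1* as the 1 call among the 9. Nothing is read from these calls, since the same contrast chose the gene. The other 8 genes had DESeq2 adjusted p-values of 0.102 and above. In 4 of the 9 genes the genotypes did not overlap, *Cdk9* and *Ctdp1* with KO above WT and *Ccnt1* and *Ccnt2* with KO below. Of all tested genes, 16.4% did not overlap (8.36% with KO above and 7.99% with KO below). *Ctdp1* enters this count and that of unadjusted p through the rise it was chosen for. Neither count is therefore read as a result on the 9 genes. The log2 fold changes were above 0 in 3 and under 0 in 6 of the 9 genes, with a median of -0.03, beside a median of -0.02 over all tested genes.

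The levels of the 9 genes per kb of merged exons spread over a wide range in WT. *Cdk9* was at 28.2 ± 4.25 CPM per kb and *Larp7* at 26.7 ± 4.77 CPM per kb, and these overlapped. They were followed by *Ssu72* at 19.7 ± 0.803, by *Polr2a* at 15.6 ± 2.32 and *Ccnt2* at 13.9 ± 0.449, which overlapped, and by *Ccnt1* at 8.88 ± 0.0635 CPM per kb. *Mepce* was at 4.88 ± 0.182 CPM per kb, and at the lower end *Ctdp1* at 1.80 ± 0.480 and *Hexim1* at 1.37 ± 0.452 overlapped. In KO, *Ctdp1* stood at 8.12 ± 1.69 CPM per kb, above *Mepce* at 5.46 ± 0.932, and its values overlapped those of *Ccnt1*. The inhibitor *Hexim1* was thus far under *Larp7* in every library, with a ratio of 0.0503 ± 0.00756 in WT and 0.0380 ± 0.0118 in KO. When the length of the longest coding transcript was used in place of merged exons, *Cdk9* in WT was at 75.2 CPM per kb without overlap with the next gene. *Ssu72* at 36.0 came before *Larp7* at 29.8, with overlap, and *Ccnt2* at 25.5 before *Polr2a* at 16.4, without overlap. The order of the genes above *Ccnt1* thus depends on the length used.

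**Figure D2:**
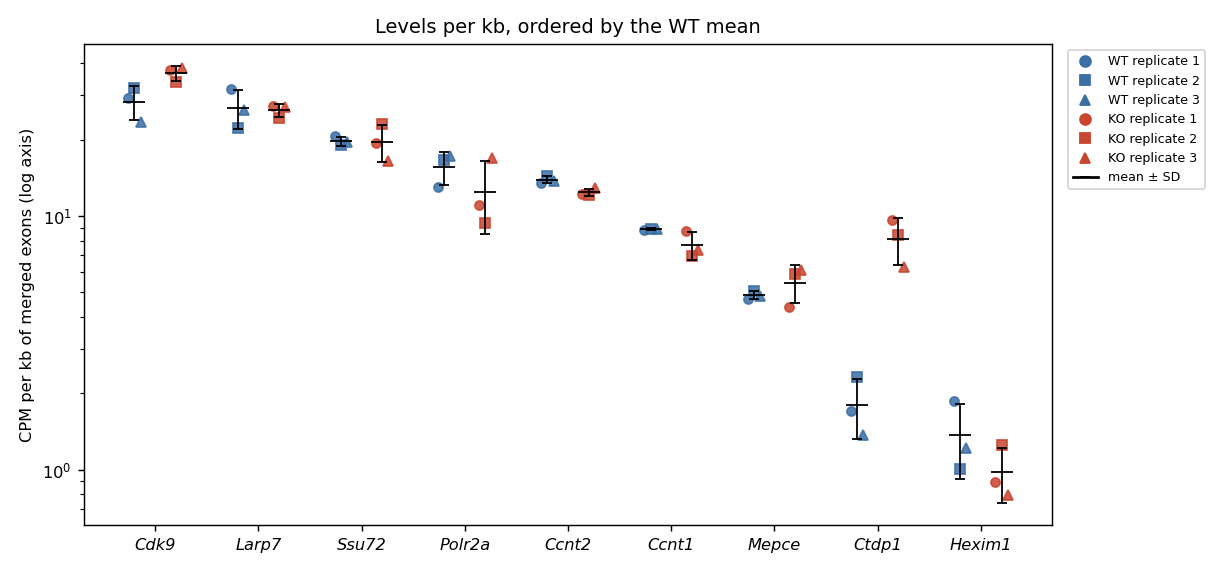
CPM per kb of merged exons on a log axis, the 9 genes ordered by their WT mean, with 1 point per library and the mean ± SD of 3 libraries in black. *Cdk9* and *Larp7* are at the upper end and *Ctdp1* and *Hexim1* at the lower end in WT, and the KO mean of *Ctdp1*, 8.12 CPM per kb, lies above the KO means of *Mepce* and *Ccnt1*.

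The rest of the pathway was described from a list of 68 other genes of pausing, elongation and the CTD, of which 67 had a row and 65 were tested. By edgeR 0 of the 65 passed an adjusted p of 0.05, with 5 higher and 5 lower at an unadjusted p under 0.05, beside 10.4% of all tested genes (6.42% higher and 3.97% lower). DESeq2 called 2 of the 63 with an adjusted p (3.17%, beside 4.87% of all genes), both higher in KO. In 27.7% of the 65 genes the genotypes did not overlap, 6 with KO above and 12 with KO below, beside 16.4% of all tested genes (8.36% above and 7.99% below). Fold changes were above 0 in 21 and under 0 in 44 genes, with a median log2 fold change of -0.05.

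The genes that DESeq2 called act with P-TEFb on the elongating polymerase. *Mllt1* (ENL), a chromatin reader of the super elongation complex, was at 27.8, 42.2 and 27.3 CPM in WT and at 77.8, 67.6 and 53.0 CPM in KO, a log2 fold change of 1.03 ± 0.22 (SE; edgeR adjusted p = 0.140, DESeq2 adjusted p = 0.000191). *Cdc73*, a subunit of the PAF elongation complex, was at 7.49, 10.7 and 6.17 CPM in WT and at 29.2, 23.9 and 18.0 CPM in KO, a log2 fold change of 1.55 ± 0.27 (SE; edgeR adjusted p = 0.132, DESeq2 adjusted p = 2.71e-06). Both genes had KO above WT in every library, and in both, as in *Ctdp1*, KO replicate 1 was the highest and KO replicate 3 the lowest KO library. Of letters pairing with the miR-302 seed, *Cdc73* had 3 matches in its 3′UTR, *Mllt1* had 0, and 14 of the 65 genes (21.5%) had any.

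Within the list, each function was mixed in direction. Of 9 tested recruiters of P-TEFb and super elongation subunits, 4 were higher and 5 lower in KO. Of 6 subunits of NELF and DSIF, which hold the paused polymerase, 3 were higher and 3 lower. The smallest p of that group was for *Supt4a*, a DSIF subunit, at 79.5 ± 3.50 in WT and 66.4 ± 3.95 CPM in KO, a log2 fold change of -0.26 ± 0.09 (SE; edgeR adjusted p = 0.319). Of 11 PAF subunits and other elongation factors, 3 were higher and 8 lower, with *Cdc73* far from the rest. Of 9 other CTD kinase genes and their cyclins, 3 were higher and 6 lower, and the smallest p was for *Cdk12*, a kinase of the CTD in gene bodies, with a log2 fold change of -0.35 ± 0.15 (SE; edgeR adjusted p = 0.486).

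The other genes of the function of *Ctdp1* are given for comparison. They were not tested against *Ctdp1*, since it was chosen for its rise. Of 14 CTD phosphatases and CTD adaptors, 3 were higher and 11 lower in KO. Their median log2 fold change was -0.05. The small CTD phosphatase *Ctdsp1* was at 4.74 ± 0.887 in WT and 4.37 ± 1.25 CPM in KO, and *Ctdsp2* at 66.7 ± 6.06 CPM and 66.6 ± 8.39 CPM. Of the 13 genes other than *Ctdp1*, 0 passed the adjusted threshold with edgeR or DESeq2, beside 0% and 4.87% of all genes. At an unadjusted p under 0.05 edgeR had 2 of them, both lower in KO, beside 10.4% of all tested genes (3.97% lower). These were *Sympk*, with a log2 fold change of -0.52 ± 0.17 (SE), and *Rprd1a*, with -0.31 ± 0.10 (SE).

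Of 13 polymerase II subunits, *Polr2a* included, 3 were higher and 10 lower, with a median log2 fold change of -0.13. By edgeR and DESeq2, 0 passed an adjusted p of 0.05, beside 0% and 4.87% of all genes. At an unadjusted p under 0.05 edgeR had 1 of them, beside 10.4% of all tested genes. That 1 gene was *Polr2m*, whose product Gdown1 can associate with the polymerase as an additional subunit. It was at 670.2, 681.8 and 529.5 CPM in WT and at 816.2, 780.4 and 796.7 CPM in KO, a log2 fold change of 0.35 ± 0.11 (SE; edgeR adjusted p = 0.296, DESeq2 adjusted p = 0.0669). Its most GC-rich stretch, a measure described further on, was at 78% GC, and with offsets for it the log2 fold change was 0.13 ± 0.13 (SE). Of 5 tested genes of the La family to which *Larp7* is related, 2 were higher and 3 lower, and the smallest p was for *Larp4b*, an RNA-binding protein of the cytoplasm, with a log2 fold change of 0.33 ± 0.13 (SE; edgeR adjusted p = 0.444), and of 0.19 ± 0.12 with the same offsets.

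**Figure D3:**
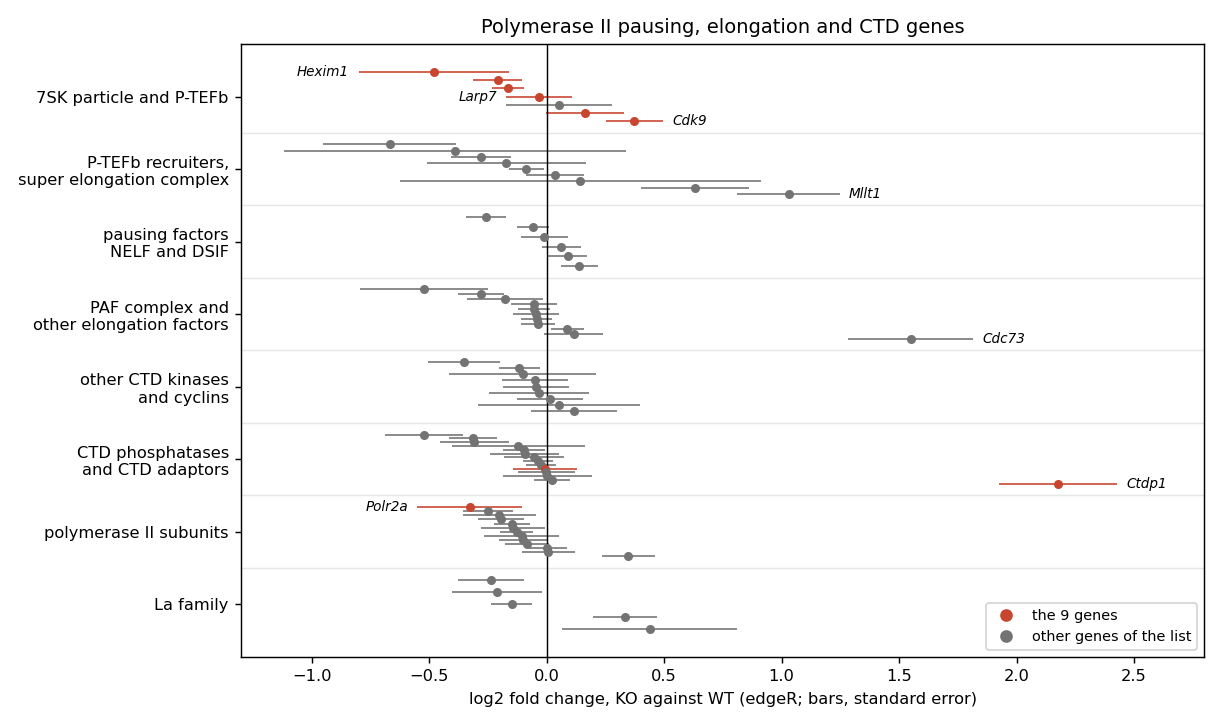
Log2 fold change of KO against WT for the tested genes of the list, the 9 genes in red and the others in grey, grouped by function, with bars for the standard error from edgeR. Most points lie near 0, and *Ctdp1* at 2.18, *Cdc73* at 1.55 and *Mllt1* at 1.03 stand to the right of the others.

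A feature of the transcript sequence moved with the difference between genotypes across all genes. For each protein-coding gene, the GC share of the most GC-rich 200 bases of its transcript was taken, a measure chosen with its relation to these data known. *Ctdp1* had 80% and *Mepce* 81.5%, and the other 7 genes were under 75%, from 60% in *Larp7* to 73% in *Cdk9* and *Ssu72*. Of all tested genes with a value, 3175 reached 75%, and of these 774 (24.4%) had every KO library above every WT library, whereas 482 of the 10670 genes under 75% (4.52%) did. In the list without the 9 genes, the same held for 4 of 17 genes (23.5%) at 75% or more and for 2 of 48 (4.17%) under it. *Cdc73* had 81.5% and *Mllt1* 76%. With offsets for this stretch in the fit, the log2 fold change of *Ctdp1* was 1.87 ± 0.21 (SE). That of *Cdc73* was 1.18 ± 0.21, that of *Mllt1* 0.91 ± 0.20, that of *Cdk9* 0.35 ± 0.13 and that of *Mepce* -0.19 ± 0.21. The part of the stretch in these differences was otherwise not tested.

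**Figure D4:**
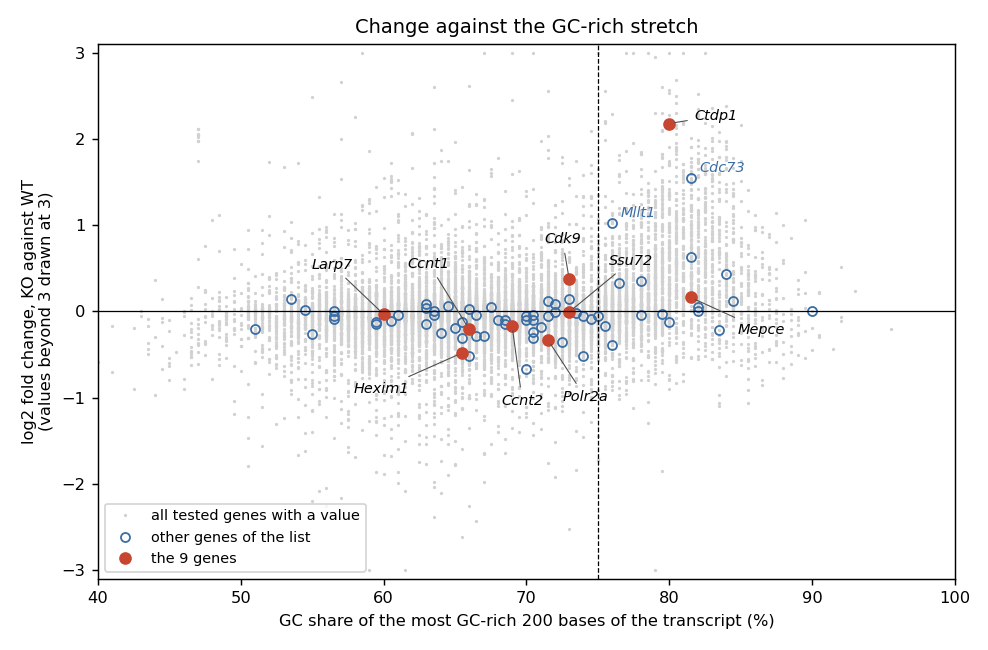
Log2 fold change of KO against WT (edgeR) plotted against the GC share of the most GC-rich 200 bases of the transcript, for all tested genes with a value (grey), the other genes of the list (blue rings) and the 9 genes (red), with a dashed line at 75%. *Ctdp1* at 80% and 2.18 lies among many grey points above 0 right of the line, and *Mepce* at 81.5% lies near 0.

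The genes whose levels ran most like *Ctdp1* over the 6 libraries, by Pearson's r of log2 CPM among 16352 genes, were *Get4* (r = 0.998), *Cdc73* (r = 0.992) and *Aven* (r = 0.992). *Get4*, which acts in the delivery of tail-anchored proteins, was at 84.3, 105.5 and 76.1 CPM in WT and at 203.2, 186.1 and 162.8 CPM in KO. *Aven*, which encodes an inhibitor of apoptosis, was at 2.78, 4.08 and 2.23 CPM in WT and at 17.1, 15.1 and 8.43 CPM in KO. Both had a stretch of 81% GC or more. For *Larp7*, the highest r were those of *Gm9923* (0.989), *Slc39a1*, a zinc transporter (0.985), and *Gm13597* (0.985). *Gm9923* and *Gm13597* are processed pseudogenes, and whether they share reads with *Larp7* was not tested. These correlations are descriptions over the same 6 libraries, and a high r was common. At a cut-off under every r printed here, 629 of the 16352 genes ran like *Ctdp1* and 153 like *Larp7*. *Ctdp1* was chosen for its rise in KO, so genes with a similar rise have a high r with it. Whether *Get4*, *Cdc73* or *Aven* is tied to *Ctdp1* beyond that was not tested.

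Among the 7 protein-coding genes within 500 kb of the cluster other than *Larp7*, 4 were tested, and edgeR called 0 of them (1 at an unadjusted p under 0.05, *Ap1ar*) and DESeq2 called 1, where 10.4% of all genes had such an unadjusted p and DESeq2 called 4.87%. *Zgrf1*, a helicase-like gene 7682 bases away, was at 32.2 ± 2.75 in WT and 25.4 ± 10.2 CPM in KO, with a log2 fold change of -0.34 ± 0.27 (SE; edgeR adjusted p = 0.77). *Ank2*, a gene of membrane anchoring 45878 bases away, had a log2 fold change of -0.37 ± 0.19 (SE; edgeR adjusted p = 0.577). *Alpk1*, a kinase gene of innate immunity, was low, at 0.189, 2.18 and 0.922 CPM in WT and at 2.39, 2.68 and 2.23 CPM in KO. The genotypes did not overlap in *Alpk1*, although WT replicate 1 rested on 4 counts. *Ap1ar*, a regulator of the adaptor AP-1 and 261200 bases away, was at 28.4, 43.1 and 22.6 CPM in WT and at 77.2, 63.2 and 52.4 CPM in KO, a log2 fold change of 1.04 ± 0.26 (SE; edgeR adjusted p = 0.171, DESeq2 adjusted p = 0.00103). Its most GC-rich stretch was at 83.5% GC, and with the offsets for the stretch its log2 fold change was 0.62 ± 0.19 (SE). *Zgrf1* and *Ank2* overlapped between genotypes, as *Larp7* did. In 50% of the 4 tested genes, *Alpk1* and *Ap1ar*, every KO library lay above every WT library. Of all tested genes, 16.4% did not overlap (8.36% with KO above). Whether the distance to the cluster has a part in these differences was not tested.

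Total counts ran from 17352498 to 26634523 per library. The 8 pancreatic progenitor markers, *Pdx1* among them, were detected in all libraries. They summed to between 1430 and 1862 CPM in WT and between 1450.5 and 1915 CPM in KO. *Cdh1* and *Epcam* were the highest of the 8, at 632.5 ± 81.4 and 449.9 ± 81.8 CPM in WT. *Ptf1a* and *Nkx6-1* were the lowest, at 2.23 ± 0.443 and 1.88 ± 0.496 CPM in WT and 3.07 ± 1.74 and 3.12 ± 2.09 CPM in KO. Markers of other cells varied between libraries within both genotypes. The 6 erythroid markers summed to 13431 CPM in WT replicate 3, to 5295 CPM in KO replicate 1 and to between 0.741 and 285 CPM in the other libraries. The 5 mesenchymal markers ran from 107 to 746 CPM in WT and from 0.912 to 770 CPM in KO, the 4 hepatoblast markers from 574 to 1594 and from 474 to 1649 CPM, the 4 endothelial markers from 3.49 to 8.40 and from 1.48 to 23.4 CPM, and the 4 neural markers, of which *Neurog2* was at 0 in all libraries, from 14.3 to 24.0 and from 12.4 to 35.3 CPM. Not 1 of these markers separated the genotypes. Without WT replicate 3 and KO replicate 1 together, the log2 fold change was 1.90 ± 0.28 (SE) for *Ctdp1*, 0.26 ± 0.13 for *Cdk9*, -0.29 ± 0.12 for *Ccnt1*, -0.14 ± 0.12 for *Ccnt2* and -0.05 ± 0.20 for *Larp7*. In bulk samples, fewer cells of a type and less RNA per cell cannot be told apart. The library names of WT replicate 2 and KO replicate 1 in the labels begin with the same code and end in different letters, and what the code marks is not stated.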

How the data were processed

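The authors sorted *Pdx1-Cre*-labelled cells, made cDNA with SMART-seq v4 and libraries with Nextera XT, mapped the reads with STAR to build GRCm39 and obtained counts with GenomicAlignments. The deposited counts are whole numbers without normalization. Versions, gene annotation and handling of strand are not given in the sources used here.

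In R 4.3.3, these counts were filtered with filterByExpr, scaled by TMM and fitted with glmQLFit and glmQLFTest of edgeR 4.0.16, with genotype alone in the model, and p-values were adjusted over all tested genes by Benjamini-Hochberg at 0.05. DESeq2 1.42.0, the tool the paper used, was an alternative. The fits were tested on simulated counts. Symbols were found for 94% of identifiers. Lengths, 3′UTRs, positions and the GC-rich stretch of 200 bases (known for 84.7% of tested genes) came from GENCODE M21 on GRCm38, another build than that of the counts, and miRNAs from RefSeq. The 9 genes, the pathway, marker and neighbour lists and the stretch were chosen with earlier results of these data known. The text names the 9 genes, pathway genes called by either tool or with the smallest p of their function, tested genes within 500 kb of the cluster and the 3 genes most like *Larp7* and *Ctdp1*. A gene of the pathway list is not reported here and is left out of the list's counts. *Hexim2*, *Polr2b*, *Ctdsp1*, *Ctdsp2*, *Sympk* and *Rprd1a* were added after their values were seen. Counting error limits the precision of low genes, and 0 counts leave room for up to 3.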

Additional observations from a re-analysis of the deposited data

How the results depend on the processing

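Each of 19 named genes was refitted under 13 alternative settings. Of the 247 values, 225 kept their direction and their side of the threshold. Another 10 passed it where the fit as reported did not, and 12 reversed, all in *Larp7*, *Mepce* and *Ssu72*. In settings where 0 of all genes passed, as in the fit as reported, no gene could change its side of the threshold. The 225 are thus no measure of how stable the calls were. *Larp7* was at a log2 fold change of 0.040 with offsets for the GC-rich stretch and ran from -0.13 to 0.11 when 1 library was left out, *Mepce* was at -0.19 with these offsets, and *Ssu72* was at 0.012 with DESeq2, 0.010 with RLE size factors, 0.0025 without a filter on low counts and 0.018 without WT replicate 3 and KO replicate 1, and ran from -0.12 to 0.14 when 1 library was left out. *Ctdp1* stayed between 1.87 and 2.42 in all 13. Genes passing an adjusted p of 0.05 numbered 0 as reported, 699 with DESeq2 and 264 without the filter, and 0 to 217 with 1 library left out, the 217 without WT replicate 2. Of the 9 genes, 1 passed with DESeq2 and 1 without the filter, and 0 to 1 with 1 library left out (1 without WT replicate 2), each time *Ctdp1*. Of the other pathway genes, 2 passed with DESeq2 and 2 without the filter, and 0 to 3 with 1 library left out (3 without WT replicate 2). Of the genes near the cluster, 1 passed with DESeq2. Samples with the same number did not deviate together (r = -0.211, 0.251 and 0.0779), so the numbers were not taken as pairs. With the replicate number as a block, 0 genes passed, and the block changed no call. The cause of these changes was not tested.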
